A study of Homo sapiens with 9 samples.

Results

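The genes described here encode 7 surface proteins through which tumor cells meet immune receptors: CD274 (PD-L1), PDCD1LG2 (PD-L2), CD276 (B7-H3), CD47, PVR (CD155), NECTIN2 (CD112) and NT5E (CD73). They were taken by symbol from a deposited expression table of 60606 genes, and all 7 were found and passed the filter on low values (a mean above 1 TPM) that 22909 genes passed. TPM scales transcripts to gene length and library total, so it can be compared between genes. Between libraries it is a share of the total, which also depends on the level of the other transcripts. The rule used only the names, not the values.

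RNA was sequenced from 3 related human cell lines, with 9 libraries, 3 of each line. U87, labelled wild-type, is a long-established human line from a glioblastoma and was grown in medium with serum. GSCs are glioblastoma stem cells derived from U87, kept in serum-free neural stem cell medium with B27, EGF and bFGF and made radioresistant by repeated irradiation. Diff cells are the radioresistant differentiated progeny of those GSCs, induced and then kept in serum medium after picking cells from clonal colonies. All 9 libraries therefore trace back to one cell line, and the number of clones behind the Diff cells is not given in the sources used here. No unirradiated GSCs were analysed here, so irradiation and stem cell culture cannot be told apart in GSCs against U87. Serum, the cells' state and the picking of colonies cannot be told apart in Diff cells against GSCs. In Diff cells against U87, irradiation, the passage through stem cell culture and the picking of colonies cannot be told apart. GSCs and Diff cells were both compared with the same 3 U87 libraries.

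These proteins work as brakes and signals at the surface of tumor cells. PD-L1 and PD-L2 bind PD-1 on T cells and dampen their activation, and interferon-gamma, acting through JAK1, JAK2 and IRF1, is the best known inducer of PD-L1. CD276 is a B7 family member abundant on many gliomas whose receptor is not settled. CD47 binds SIRPA on macrophages and microglia and holds back phagocytosis. PVR and NECTIN2 are bound by the inhibitory receptor TIGIT and by the activating receptor CD226. NT5E is an enzyme that turns extracellular AMP, made from ATP by ENTPD1 (CD39), into adenosine, which quiets lymphocytes through the receptor ADORA2A.

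The promoters of the genes that the results turn on are shown first, as the 250 bases before the RefSeq start in GRCh38.p14, 5′ to 3′ on the strand of the gene. CD274 is shown because its window alone among those read held interferon-type motifs. CD47 and NECTIN2 are shown because both fell against U87 in both irradiated lines, and NT5E because it changed most. Capitals mark matches, on either strand, to 8 motifs that were searched.
CD274, chr9:5450292-5450541, plus strand: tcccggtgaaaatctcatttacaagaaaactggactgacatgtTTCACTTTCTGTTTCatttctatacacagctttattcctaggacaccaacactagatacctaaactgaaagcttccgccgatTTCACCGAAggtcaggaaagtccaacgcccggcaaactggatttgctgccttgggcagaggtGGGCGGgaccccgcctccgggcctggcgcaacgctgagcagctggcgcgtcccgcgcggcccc
CD47, chr3:108091032-108091281, minus strand: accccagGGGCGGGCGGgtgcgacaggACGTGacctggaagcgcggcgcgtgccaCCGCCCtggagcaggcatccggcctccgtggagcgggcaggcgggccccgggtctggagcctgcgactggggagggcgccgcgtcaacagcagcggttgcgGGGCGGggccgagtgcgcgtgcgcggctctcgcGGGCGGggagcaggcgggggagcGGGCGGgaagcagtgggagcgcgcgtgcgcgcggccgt
NECTIN2, chr19:44846047-44846296, plus strand: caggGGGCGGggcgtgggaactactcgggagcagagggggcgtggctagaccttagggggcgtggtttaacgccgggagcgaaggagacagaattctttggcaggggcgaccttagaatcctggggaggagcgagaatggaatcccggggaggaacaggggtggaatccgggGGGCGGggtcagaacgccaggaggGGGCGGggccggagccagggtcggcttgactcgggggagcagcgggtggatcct
NT5E, chr6:85449833-85450082, plus strand: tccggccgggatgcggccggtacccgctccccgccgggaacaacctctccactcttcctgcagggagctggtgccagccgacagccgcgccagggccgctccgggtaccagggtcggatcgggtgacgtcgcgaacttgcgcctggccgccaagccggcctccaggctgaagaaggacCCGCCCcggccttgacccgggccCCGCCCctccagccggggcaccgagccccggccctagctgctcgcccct

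The CD274 window held 2 overlapping copies of GAAANNGAA, the core of the interferon-stimulated response element, read here on the opposite strand and beginning 207 and 201 bases before the start. It also held 1 TTCNNNGAA, the STAT site, at 125 bases and 1 GGGCGG, the GC box, at 63 bases. Of 35116 promoter windows of the same length, 6.88% held the first motif, 6.57% the second and 42.6% the third. CD47, NECTIN2 and NT5E had no interferon or STAT match in these letters, and their capitals mark 6, 3 and 2 GC boxes and, in CD47, 1 ACGTG, the HIF core, at 223 bases. ACGTG was present in 18.5% of windows and lies inside CACGTG, the E-box, which 6.34% held. In PVR the only match was CATTCC, the TEAD motif, at 182 bases, which 11.9% of windows held. CD276 has 2 RefSeq windows, with 7 and 2 GC boxes and an ACGTG in the second. TGANTCA (AP-1, 6.57% of windows) and GGGANTTTC (most of an NF-kB site, 1.12%) matched no window of these genes. The 6 matched genes do not include PDCD1LG2. A match is a description of the letters and not a measured binding site, and the GENCODE 29 gene models of CD274 and NECTIN2 begin inside these windows while those of CD47 and NT5E begin before them.

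The pan-leukocyte gene PTPRC and the T cell gene CD3E were near 0 in all 9 libraries, while some other markers of immune cells were detected. PTPRC (CD45) reached at most 0.137 TPM and CD3E at most 0.125 TPM. Of 17 immune and endothelial markers, 10 stayed under 1 TPM in every library. The summed level of the 17 was 293 to 335 TPM in U87, 54.3 to 57.3 in GSCs and 106 to 111 in Diff cells, with means of 292, 23.7 and 88.9 TPM from HLA-DRA, an MHC class II gene that tumor cells can also make. Without HLA-DRA the sums were 22.9 to 27.0, 29.7 to 33.3 and 18.7 to 20.9 TPM. The monocyte and microglia gene CSF1R had means of 15, 4.68 and 9.77 TPM in U87, GSCs and Diff cells, and the endothelial gene VWF 0.53, 11.4 and 1.74 TPM. CD4 had means of 2.73, 4.42 and 1.72 TPM, the macrophage gene CD68 2.48, 2.28 and 2.25, the lymphocyte gene NKG7 0.468, 1.83 and 0.241, and the endothelial gene PECAM1 2.77, 6.25 and 2.92. The part of these differences in the results was not tested. CDKN2A and MTAP, which U87 is known to lack, were at most 0.176 and 0.016 TPM, and the glial marker GFAP at most 2.57 TPM. Of the markers of glioma and stem cells, SOX2 stayed under 1 TPM but was highest in GSCs (means 0.0383, 0.879 and 0.153 TPM). FABP7 had 0.731, 4.91 and 2.86 TPM, OLIG2 7.27, 8.75 and 5.37, and NES 33.0, 22.6 and 13.5. PROM1 (CD133) had 0.171, 0.507 and 0.0236 TPM and TUBB3 3.74, 4.66 and 5.22. The mesenchymal markers went different ways, with CHI3L1 at 107, 557 and 1809 TPM and VIM at 1640, 1214 and 616. SPARC had 414, 184 and 200 TPM and CD44 405, 427 and 296. The receptors of these ligands on lymphocytes were low: PDCD1 (PD-1) reached 0.397 TPM, CD226 0.431, CD96 0.267 and TIGIT 1.43. Mitochondrial genes took 25.9% to 31.8% of TPM. The single gene RN7SL1 took 8.77% to 9.79% in U87, 5.73% to 7.84% in GSCs and 6.67% to 8.54% in Diff cells. From 31832 to 33079 genes were above 0 per library, and the read depth is not kept in TPM. In bulk RNA, fewer cells that express a gene and less RNA per cell cannot be told apart.

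The 7 ligands covered a wide range of levels, and NT5E was the highest in every line. Its mean TPM was 7.17 times that of CD276, the next in order, in U87 and 9.73 times in GSCs, but 1.66 times in Diff cells. In U87 the order of mean TPM was NT5E, CD276, CD47, NECTIN2, PVR, PDCD1LG2 and CD274, and no neighbours in this order overlapped. In GSCs PDCD1LG2 moved up above CD47 and NECTIN2 down below PVR, and PDCD1LG2 and CD47 overlapped. In Diff cells CD47 stood above PVR and PDCD1LG2 again, and PVR and PDCD1LG2 overlapped. NECTIN2 stayed next above CD274 in the order, at 3.36 times its mean. CD274 was the lowest of the 7 in each line. The mean TPM of NT5E was 62.1 times that of CD274 in U87, 87.1 times in GSCs and 35.3 times in Diff cells. NT5E made up 72.9%, 80.5% and 46.7% of the summed mean TPM of the 7 genes in U87, GSCs and Diff cells.

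Differences were tested with limma on log2(TPM + 1) across all 22909 genes. A gene is said to have passed, and to have risen or fallen, at an adjusted p under 0.05, with Benjamini-Hochberg adjustment over all genes of a comparison. It is said to be called when its log2 fold change was also beyond 1. The labels do not say whether the 3 libraries of a line came from separate cultures, so the p-values measure only the spread between these libraries. With the added 1 TPM, fold changes of low genes are understated.

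Against U87, GSCs had higher PDCD1LG2 and NT5E and lower CD47 and NECTIN2, so 4 of 7 ligands passed. Of all tested genes 48.6% passed in this comparison (25.3% rose and 23.3% fell), and 57.4% of those with a mean over 5 TPM, so the share of ligands was near the background. The largest change was that of NECTIN2, at -0.97 just inside the fold limit that 17.1% of all tested genes went beyond and passed. The ranges of GSCs and U87 did not overlap for the same 4 ligands, against 55.8% of all tested genes. The median log2 fold change was 0.03 over the 7 ligands and 0.02 over all tested genes.

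Against U87, Diff cells had higher CD276 and lower CD274, CD47, NECTIN2 and NT5E, so 5 of 7 passed. The background was 39.4% of all tested genes (18.9% rose and 20.5% fell), or 47.3% of those with a mean over 5 TPM. NT5E alone was called, where 12.3% of tested genes were. Ranges did not overlap for 6 of 7 ligands, PVR among them, against 55.2% of tested genes. The median log2 fold change of the ligands was -0.63, beside -0.04 over all tested genes.

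Against GSCs, Diff cells had higher CD276 and lower CD274, PDCD1LG2 and NT5E, so 4 of 7 passed, where 34.8% of all tested genes (15.0% rose and 19.8% fell) and 43.4% of those with a mean over 5 TPM did. NT5E was called here too, as were 8.01% of tested genes. Ranges did not overlap for 5 of 7 ligands, against 46.7% of tested genes. The medians were -0.07 for the ligands and -0.06 for all tested genes. The ligands thus did not move as a block: the same comparison held changes in both directions each time.

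**Figure D1:**
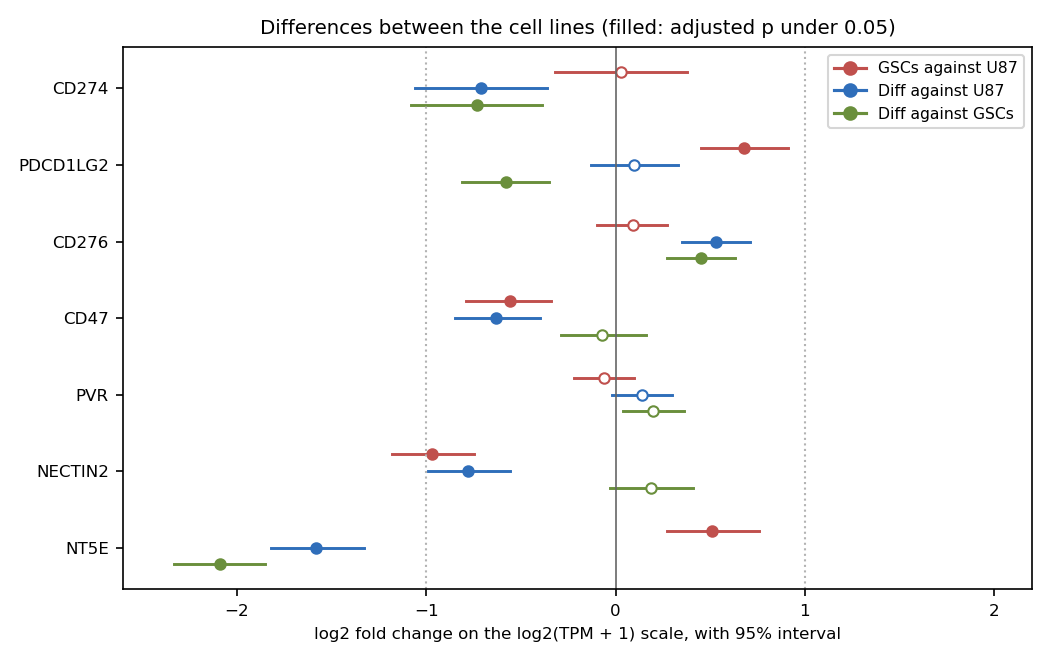
Log2 fold change on the log2(TPM + 1) scale (horizontal axis) of each ligand in the 3 comparisons, with 95% intervals from limma; filled points passed at an adjusted p under 0.05 and dotted lines mark a log2 fold change of 1 either way. NT5E alone lies beyond a dotted line, at -1.58 for Diff cells against U87 and -2.09 against GSCs, and PVR has no filled point.

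CD274, the PD-L1 gene and lowest of the 7 ligands, had overlapping levels in U87 and GSCs and fell in Diff cells. Its mean lay above that of 62.9%, 62.2% and 51.3% of all tested genes in U87, GSCs and Diff cells. Its TPM was 12.8, 11.4 and 11 in the U87 libraries, 11.1, 11.2 and 13.8 in GSCs and 5.43, 6.65 and 8.62 in Diff cells. All 3 Diff libraries were below all 6 others, while U87 and GSCs overlapped. Diff cells had 58.8% of the U87 mean (6.9 ± 1.61 against 11.7 ± 0.959, SD, n = 3), a log2 fold change of -0.71 (SE 0.153, limma adjusted p = 0.00607). Against GSCs (12 ± 1.52) the change was -0.73 (adjusted p = 0.00613). Between GSCs and U87 the log2 difference was 0.03, with a 95% interval from -0.32 to 0.38 (adjusted p = 0.896), so a moderate difference in either direction lies within the error. Its sign turned under quantile normalization (-0.0383). The Diff libraries were also the most uneven among themselves, from 46.2% to 73.4% of the U87 mean.

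PDCD1LG2, the PD-L2 gene, begins 40.0 kb beyond the end of CD274 on the same strand of chromosome 9 (GRCh38, chr9:5510570-5571254, beside chr9:5450503-5470566). It followed another course: higher in GSCs alone. Its TPM was 27.2, 27.7 and 25.7 in U87, 42.7, 41.2 and 47.2 in GSCs and 32.7, 24.8 and 29.5 in Diff cells. Every GSC library lay above all other libraries, whereas Diff cells spanned the U87 range. GSCs had 1.63 times the U87 mean (43.7 ± 3.09 against 26.9 ± 1.06, n = 3), a log2 fold change of 0.68 (SE 0.0999, limma adjusted p = 0.000527). Diff cells (29 ± 4.0) were below GSCs, with a log2 change of -0.58 (adjusted p = 0.00231). Against U87 their difference of 0.10 had an interval from -0.13 to 0.33 (adjusted p = 0.478).

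Within a library there was more PD-L2 than PD-L1 transcript throughout. The TPM ratio of PDCD1LG2 to CD274 was 2.12 to 2.42 in U87, 3.42 to 3.85 in GSCs and 3.42 to 6.03 in Diff cells. Both radioresistant lines thus lay above U87, with more PDCD1LG2 in GSCs and less CD274 in Diff cells. The value 6.03 belonged to the first Diff library, and the other two gave 3.72 and 3.42. RGMB, which binds PD-L2, had 32.1, 22.6 and 8.87 TPM in U87, GSCs and Diff cells and fell in Diff cells against both (-1.75 and -1.26 on the log2 scale, limma adjusted p = 1.56e-06 and 2.06e-05).

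The interferon-gamma pathway that acts on CD274 did not move in one direction. IFNGR2, a chain of the interferon-gamma receptor, had means of 40.9, 30.9 and 15 TPM in U87, GSCs and Diff cells. Its log2 change in Diff cells was -1.41 against U87 and -1.02 against GSCs (limma adjusted p = 0.000158 and 0.00146), the same comparisons in which CD274 fell. JAK1 went the other way in Diff cells, with 52.0, 36.3 and 71.1 TPM, a fall of -0.51 in GSCs against U87 (adjusted p = 6.41e-05) and log2 changes of 0.44 and 0.95 in Diff cells against U87 and GSCs (adjusted p = 0.000195 and 4.81e-06). STAT2, a transcription factor of interferon signaling, rose against U87 in GSCs and in Diff cells (1.30 and 1.08, adjusted p = 1.05e-06 and 4.64e-06). IRF1, the factor that switches CD274 on directly, was low, at 3.79, 2.22 and 2.48 TPM, and fell against U87 in GSCs and in Diff cells (-0.57 and -0.46, adjusted p = 0.00725 and 0.0248). In Diff cells it no longer passed without U87 library 1 or 3 or without Diff library 2 or 3 (adjusted p from 0.0106 to 0.0932 over the alternatives). SOCS1, a feedback inhibitor of JAK signaling, was 34.0 TPM in U87 against 7.04 in GSCs and 5.24 in Diff cells (-2.13 and -2.48, adjusted p = 3.26e-05 and 1.87e-05). JAK2 had 11.8, 11.1 and 9.49 TPM and did not pass in any comparison.

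Over the whole list of 29 genes known to act on CD274 transcription, 9 rose and 10 fell in GSCs against U87. In Diff cells 7 rose and 12 fell against U87, and 2 rose and 7 fell against GSCs. Another list of 19 genes acting on PD-L1 protein had 18 tested. Of these 6 rose and 5 fell in GSCs against U87, 7 rose and 3 fell in Diff cells against U87, and 6 rose and 3 fell in Diff cells against GSCs. CMTM6, which protects PD-L1 protein from degradation, had 26.1, 20.1 and 32 TPM in U87, GSCs and Diff cells, with a log2 change of 0.66 in Diff cells against GSCs (limma adjusted p = 0.00334). In that comparison CD274 itself fell. CMTM6 fell in GSCs against U87 (-0.38, adjusted p = 0.0308, from 0.000776 to 0.0881 over the alternatives), where CD274 did not pass. In Diff cells against U87, where CD274 fell, CMTM6 did not pass (0.28, adjusted p = 0.101, from 0.00739 to 0.235). HIP1R, which sends PD-L1 to lysosomes, was the called gene of this list, at 4.4, 1.09 and 1.59 TPM (-1.37 in GSCs and -1.06 in Diff cells against U87, adjusted p = 2.73e-05 and 0.000179). PD-L1 protein was not measured in these files.

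CD276, the B7-H3 gene (chr15:73683966-73714518, plus strand), rose in Diff cells. It had 103, 112 and 89.8 TPM in U87, 114, 106 and 103 in GSCs and 144, 145 and 152 in Diff cells. The Diff libraries lay close together and above all 6 others, and U87 and GSCs overlapped. Diff cells had 1.45 times the U87 mean (147 ± 3.95 against 102 ± 11.1, n = 3), a log2 fold change of 0.53 (SE 0.0795, limma adjusted p = 0.000758), and 1.37 times the GSC mean of 108 ± 5.43 (0.45, adjusted p = 0.00273). Between GSCs and U87 the difference was 0.09, with an interval from -0.10 to 0.27. CD276 was thus the one ligand that rose in Diff cells, where CD274 fell.

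The other B7 and butyrophilin genes were mostly low. Of 18 on the list 7 were tested, and the costimulatory genes CD80, CD86 and ICOSLG reached at most 0.3, 0.12 and 0.613 TPM. In GSCs against U87, 5 of the 7 rose and 1 fell. In Diff cells 2 rose and 2 fell against U87, and 4 fell against GSCs. NCR3LG1 (B7-H6), the ligand of the natural killer receptor NKp30, was the called gene among those that rose. It had 12.6, 13.5 and 9.89 TPM in U87, 44.4, 44.9 and 55.0 in GSCs and 27.1, 23.7 and 28.9 in Diff cells. The 3 lines did not overlap, and it rose by 1.92 in GSCs and 1.09 in Diff cells against U87 (limma adjusted p = 5.06e-06 and 0.000214). BTN3A3, a butyrophilin of the family that gamma delta T cells sense, had 7.48, 13.2 and 5.25 TPM and fell in Diff cells against GSCs (-1.19 on the log2 scale, adjusted p = 2.01e-05).

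CD47, the signal against phagocytosis, was lower in both radioresistant lines than in U87. The gene lies at chr3:108043094-108091862 on the minus strand. Its TPM was 64.7, 62.7 and 58.0 in U87, 38.6, 37.8 and 48.9 in GSCs and 41.5, 37.8 and 39.5 in Diff cells. All 6 radioresistant libraries were below the U87 libraries and overlapped each other, and the third GSC library stood above the other two. The mean was 67.6% of U87 in GSCs (41.8 ± 6.17 against 61.8 ± 3.45, n = 3), a log2 fold change of -0.56 (SE 0.0984, limma adjusted p = 0.00144). In Diff cells (39.6 ± 1.85) it was 64.1%, or -0.63 (adjusted p = 0.000999). Diff cells and GSCs differed by -0.07, with an interval from -0.29 to 0.16 (adjusted p = 0.646), and this sign turned without the third GSC library (0.0491).

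Other signals to phagocytes moved both ways. Of 14 genes 9 were tested; in GSCs against U87 5 rose and 3 fell, in Diff cells against U87 3 rose and 4 fell, and in Diff cells against GSCs 4 rose and 3 fell. CD24, which like CD47 restrains phagocytes, was 4.04, 5.82 and 5.48 TPM in U87 and under 1 in all 6 other libraries (-2.04 and -2.25, limma adjusted p = 0.000125 and 9.23e-05). SIRPA, the CD47 receptor, was itself expressed, at 28.8, 13.8 and 20.0 TPM, and fell in GSCs and Diff cells against U87 (-1.01 and -0.50, adjusted p = 6.99e-06 and 0.000677). QPCTL, the enzyme that modifies CD47 so that SIRPA can bind, had 25.6, 38.9 and 26.3 TPM and rose in GSCs, where CD47 fell (0.58, adjusted p = 0.00203). In Diff cells against U87, where CD47 fell too, QPCTL did not pass (0.04, adjusted p = 0.805). LRP1, the receptor for the uptake signal calreticulin, rose in GSCs (429, 876 and 344 TPM, 1.02), and MFGE8, a bridge between dying cells and phagocytes, rose from 17.0 to 42.4 TPM in GSCs and 51.8 in Diff cells (1.26 and 1.55, adjusted p = 1.97e-06 and 9.84e-07). QPCT, the relative of QPCTL, had 13.8, 30.7 and 25 TPM and rose in both lines against U87 (1.1 and 0.81, adjusted p = 6.03e-06 and 5.33e-05). THBS1, a secreted ligand of CD47, was at most 1.98 TPM, while its relative THBS2 had 13.4, 21.2 and 34.8 TPM and rose in GSCs and Diff cells against U87 (0.62 and 1.31, adjusted p = 0.000761 and 1.11e-05).

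The nectin pair parted: NECTIN2 fell in both radioresistant lines, whereas PVR differed little between the lines. PVR (chr19:44643798-44663583) and NECTIN2 (chr19:44846175-44889228) lie on the same strand 183 kb apart. PVR had 27.8, 29.4 and 30.3 TPM in U87, 27.1, 30.3 and 26.6 in GSCs and 31.1, 33.9 and 31.7 in Diff cells. Diff cells were the highest without overlap, but by little: 32.2 ± 1.44 TPM against 29.1 ± 1.27 and 28.0 ± 2.01 (n = 3). The log2 differences were 0.14 against U87 (interval -0.02 to 0.30, limma adjusted p = 0.144), 0.20 against GSCs (0.04 to 0.36, adjusted p = 0.0532), and -0.06 between GSCs and U87 (-0.22 to 0.10, adjusted p = 0.518). With all libraries and the settings used throughout PVR passed in no comparison, and these 95% intervals together span -0.22 to 0.36. Against GSCs it did pass with a mean TPM over 5, with median-ratio scaling, with TPM rescaled without mitochondrial genes and RN7SL1, and without the second GSC library, there at 0.256 (adjusted p = 0.0204, from 0.0204 to 0.17 over the alternatives). Of the exon bases of PVR 3.44% are shared with CEACAM19 on the same strand, which had a mean of 0.987 TPM.

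NECTIN2 had 42.7, 37.9 and 40.8 TPM in U87, 20.1, 23.1 and 17.7 in GSCs and 23.1, 24.3 and 22.2 in Diff cells. All 6 radioresistant libraries were far below U87 and overlapped each other. GSCs had 50.2% of the U87 mean (20.3 ± 2.7 against 40.5 ± 2.41, n = 3), a log2 fold change of -0.97 (SE 0.0955, limma adjusted p = 4.63e-05), and Diff cells (23.2 ± 1.05) had 57.3%, or -0.78 (adjusted p = 0.000239). Between Diff cells and GSCs the difference was 0.19 (-0.03 to 0.41, adjusted p = 0.162), which passed without the second GSC library (0.283, adjusted p = 0.0331, from 0.0331 to 0.372 over the alternatives). Against U87 the change in GSCs went past the fold limit without the second U87 library (-1.01) and without the second GSC library (-1.06). The TPM ratio of NECTIN2 to PVR went from 1.29 to 1.54 in U87 down to 0.668 to 0.764 in GSCs and 0.699 to 0.743 in Diff cells. NECTIN2 was therefore the more abundant of the pair in U87 and PVR in the other lines. An antisense gene, AC011481.2, covers 3.42% of the NECTIN2 exon bases. No level above 0 was found for it, either because it was at 0 or because its symbol was not listed.

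Among the other nectins and nectin-like genes, of which 4 of 7 were tested, NECTIN1 and NECTIN3 went opposite ways. NECTIN1, an adhesion molecule that also serves as a herpesvirus entry receptor, rose from 3.31 TPM in U87 to 15.8 in GSCs and 12.1 in Diff cells (1.96 and 1.60, limma adjusted p = 7.01e-07 and 3.41e-06). NECTIN3, which pairs with PVR and NECTIN2 between cells, fell like NECTIN2, from 29.2 to 14.2 and 15.3 TPM (-0.99 and -0.89, adjusted p = 6.74e-05 and 0.000167). CADM1, an adhesion molecule that lymphocytes recognize, was near 0 in U87 (0.227 TPM) and rose to 1.66 and 2.4 TPM. In all, 2 of the 4 rose and 1 fell in each radioresistant line against U87, and 2 fell in Diff cells against GSCs.

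NT5E, the gene of the adenosine-making enzyme CD73, changed most of the 7. It lies at chr6:85449584-85495791 on the plus strand. Its TPM was 759, 672 and 757 in U87, 1007, 915 and 1220.2 in GSCs and 263, 232 and 236 in Diff cells. The 3 lines did not overlap, and the Diff libraries lay close together far below the rest. The mean in GSCs was 1.44 times that of U87 (1047 ± 157 against 729 ± 49.3, n = 3), a log2 fold change of 0.51 (SE 0.107, limma adjusted p = 0.00381). Diff cells (244 ± 16.5) had 33.4% of U87, or -1.58 (adjusted p = 6.95e-06), and 23.3% of GSCs, or -2.09 (adjusted p = 3.41e-06). In size this last change exceeded that of 98.8% of all tested genes. At 244 TPM NT5E was still the highest of the 7 ligands in Diff cells.

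The enzyme before NT5E in the pathway, ENTPD1, peaked in GSCs as well but was scarce. Its TPM was 1.83, 1.78 and 1.69 in U87, 6.46, 6.91 and 7.88 in GSCs and 2.5, 1.92 and 2.2 in Diff cells. GSCs were above both others without overlap, by 1.54 against U87 on the log2 scale (limma adjusted p = 1.28e-05), and Diff cells fell against GSCs (-1.33, adjusted p = 8.37e-05). The TPM ratio of NT5E to ENTPD1 was 378 to 449 in U87, 132 to 156 in GSCs and 105 to 121 in Diff cells. ENPP1, another enzyme that yields AMP, had 24.2, 27.7 and 13.1 TPM and fell in Diff cells against U87 and GSCs (-0.84 and -1.02, adjusted p = 0.000333 and 0.000185). CD38, which feeds the alternative route from NAD, was at most 0.294 TPM.

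ADA and DPP4, which act in the removal of adenosine, rose against U87 both in Diff cells, where NT5E fell, and in GSCs, where NT5E rose. ADA, adenosine deaminase, had 2.71, 4.09 and 9.72 TPM in U87, GSCs and Diff cells. Its log2 changes in Diff cells were 1.54 against U87 and 1.08 against GSCs (limma adjusted p = 3.36e-05 and 0.00044). In GSCs against U87 its change was 0.45 (adjusted p = 0.0229, from 0.00805 to 0.0797 over the alternatives). DPP4 (CD26), which holds ADA at the surface, had 4.45, 13.0 and 18.0 TPM and rose in both lines against U87 (1.35 and 1.80, adjusted p = 4.61e-05 and 1.15e-05). ADK, a kinase that also clears adenosine and is named after its values were seen, went the other way, at 30.0, 19.2 and 19.9 TPM (-0.63 and -0.57 against U87, adjusted p = 0.00115 and 0.00255). SLC29A2, a nucleoside transporter, was 8.63, 49.8 and 16.1 TPM and rose by 2.40 in GSCs (adjusted p = 9.56e-07). Of the receptors, ADORA2B stood at 48.3, 34.1 and 43.9 TPM and the lymphocyte type ADORA2A at most at 0.447. ADORA1 had 3.89, 2.87 and 10.3 TPM and rose in Diff cells against both (1.20 and 1.53, adjusted p = 6.18e-05 and 2.71e-05). Of 19 genes in the list 11 were tested: 6 rose and 3 fell in GSCs against U87, 6 rose and 2 fell in Diff cells against U87, and 4 rose and 4 fell in Diff cells against GSCs.

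Among 26 other checkpoint ligands and enzymes, of which 16 were tested, the largest change was that of TNFRSF14 (HVEM), the ligand of BTLA and CD160. It was 2.28, 2.51 and 2.0 TPM in U87, 59.2, 64.1 and 45.6 in GSCs and 22.5, 20.4 and 19.5 in Diff cells. The lines were far apart, with rises of 4.12 and 2.74 on the log2 scale against U87 (limma adjusted p = 6.49e-08 and 9.18e-07). CD40, a costimulatory receptor, had 6.21, 23.5 and 9.47 TPM, TNFSF9 (4-1BBL), a costimulatory ligand, 26.4, 58.8 and 51.0 TPM, and CD55, which blocks complement, 6.67, 27.6 and 17.2 TPM. All 3 rose in both radioresistant lines, CD40 by 1.77 and 0.54, TNFSF9 by 1.13 and 0.93 and CD55 by 1.90 and 1.25. ARG2, an arginine-degrading enzyme, fell from 17.1 to 3.78 and 4.55 TPM (-1.93 and -1.73, adjusted p = 2.23e-05 and 6.18e-05). TDO2, which degrades tryptophan, rose to 10.4 TPM in Diff cells from 3.86 in U87 (1.23, adjusted p = 0.000695). In the list 8 rose and 3 fell in GSCs against U87, 7 rose and 1 fell in Diff cells against U87, and 3 rose and 5 fell in Diff cells against GSCs.

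Over all 8 lists around the ligands, 96 of 146 genes were tested. In GSCs against U87 41 rose and 28 fell, or 71.9%, beside 48.6% of all tested genes. In Diff cells against U87 34 rose and 26 fell (62.5%, beside 39.4%), and against GSCs 19 rose and 29 fell (50.0%, beside 34.8%). These genes were listed for their function with earlier results known, and nothing is read from their share.

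**Figure D2:**
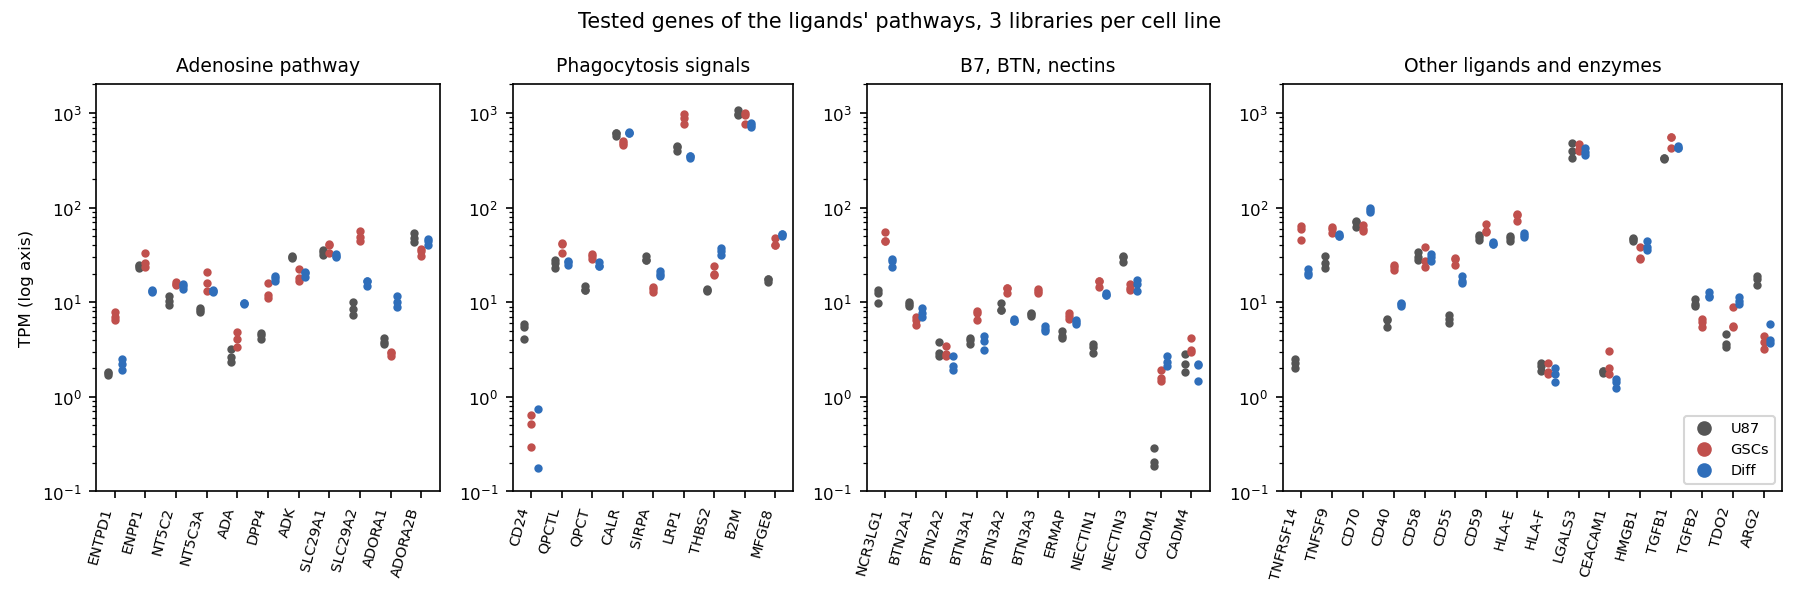
TPM on a log axis of the tested genes of the adenosine, phagocytosis, B7, nectin and other ligand lists; each point is 1 library, 3 per line, and a CD24 value of 0 in the third Diff library cannot be drawn. TNFRSF14 lies at 2.0 to 2.51 TPM in U87 and 45.6 to 64.1 in GSCs, ENTPD1 and SLC29A2 are highest in GSCs, and ADA and ADORA1 are highest in Diff cells.

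Cell lines can differ in blocks of neighbouring genes, so each ligand was set beside the 10 nearest tested genes on each side. NECTIN2 was lower than all 20 of its neighbours in GSCs against U87 (their median 0.10) and in Diff cells against U87 (median 0.08). NT5E was lower than all 20 in Diff cells against U87 (median -0.12) and against GSCs (median -0.13). In these comparisons 4 and 2 of the neighbours of NECTIN2 fell and 6 and 3 rose, and 4 and 5 of those of NT5E fell and 2 and 1 rose. PDCD1LG2 in GSCs against U87 was exceeded by ERMP1 (1.18) and IL33 (1.15), around a median of -0.30. CD274 lay below 19 of its 20 in both Diff comparisons, the exceptions being MLANA against U87 (-0.78) and IL33 against GSCs (-1.19), with medians of -0.14 and 0.13. CD47 was above ALCAM (-0.80) and CIP2A (-1.13) alone in GSCs against U87, and above NFKBIZ (-0.73) and ALCAM (-0.76) alone in Diff cells against U87. In these comparisons the medians of its neighbours were -0.12 and 0.07, 6 and 4 of them fell and 6 and 8 rose. The genes on either side of CD47, BBX and IFT57, had -0.48 and -0.53 in GSCs and -0.48 and -0.35 in Diff cells. CD276 was exceeded in Diff cells by NEO1, FKBP1AP2 and STRA6 against U87 and by REC114 and STRA6 against GSCs. These neighbours were named after their values were seen, and several near CD274 are mitochondrial pseudogenes, whose reads may be shared with near-identical copies.

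Genes with the pattern most like each ligand were found among 12071 protein-coding genes, by the root mean square difference of log2 values over the 9 libraries, each gene centred on its own mean. NT5E was closest to PDGFRA, a growth factor receptor, at 0.0878, with 2.37, 3.7 and 0.0556 TPM in U87, GSCs and Diff cells, then to PITPNC1 and MPP4. The added 1 TPM compresses the fall of a gene as low as PDGFRA, so its closeness to NT5E, which went from 729 to 244 TPM between U87 and Diff cells, holds on that scale and not for the fold in TPM. NECTIN2 was closest to SLC35E4 (0.0632), LRRC46 and SH3GL1, and CD47 to MFAP3 (0.0422), ASAH2B and ZNF638. PDCD1LG2 was closest to SRPK1 (0.0632), NFXL1 and NIPA1, and CD276 to GPRC5A (0.0639), RAD50 and SLC36A1. CD274 was closest to FIBIN (0.122), TSPAN5 and MATN3. PVR, which hardly varied, was closest to ARID1B (0.0521), FAU and GIT1. These genes were picked as the closest, so their distances are no yardstick for those between ligands. No ligand was among the 3 genes closest to another. The nearest ligand pairs were CD276 and PVR at 0.199 and CD47 and NECTIN2 at 0.253, and the farthest CD276 and NT5E at 1.12. In closeness PVR ranked 1054 from CD276, and NECTIN2 2304 from CD47. The measure also depends on the size of the changes: the root mean square of PVR itself was 0.104 and that of CD276 0.249. With 3 lines and 9 libraries many genes share such a pattern, and it is given as a description.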

How the data were processed

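RNA of U87, GSCs and Diff cells, 3 libraries each, was read from the one table that the authors deposited, which holds log2(TPM + 1) for 60606 genes. Transformed back, the values summed to 1000000 in every library, so the library total had been divided out, and read depth and counting error are unknown. That sum does not show the division by gene length, which rests on the values being TPM. Per the labels, ribosomal RNA was removed and directional paired-end libraries were made, whereas the study's methods describe enrichment of mRNA on oligo(dT) beads. The submitters' processing notes name FastQC 0.11.9, Trimmomatic 0.39, HISAT2 2.2.1, featureCounts 2.0.5, R 4.2.0 and GRCh38; the annotation and the strand setting of the counting are not given in the sources used here, so overlapping genes are named where they touch a ligand.

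The 22909 genes with a mean TPM over 1 entered a single fit over the 9 libraries (R 4.3.3, limma 3.58.1, moderated with a mean trend), with Benjamini-Hochberg adjustment within each comparison. The study's methods name no test for this table. The script was tested on simulated data. Groups came from the sample titles. The 7 genes and all lists were chosen with earlier results of these data known. Named genes were the 7 ligands, up to 5 genes per list with the largest change among those called in a comparison, genes whose role is given beside a ligand, and the 3 most alike in pattern, of which not all are printed. Gene positions are those of GENCODE 29, matched by symbol, and promoters those of RefSeq for GRCh38.p14, which matched 6 of the 7. Alternatives covered pseudocounts, filters, scalings, the spread model, the samples in the fit, a replicate block and the omission of each library. Python 3.11.15 with matplotlib 3.10.9, numpy 2.4.6 and pandas 2.3.3 served for tables and plots.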

Additional observations from a re-analysis of the deposited data

How the results depend on the processing

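Of 21 results of single ligands, 17 kept their direction and their side of the threshold under all 19 alternatives. CD274 in GSCs against U87 turned negative with quantile normalization (-0.0383) and ranged from -0.0659 to 0.0879 when each library was left out, negative without the third U87 or the third GSC library. CD47 in Diff cells against GSCs ranged from -0.133 to 0.0491, positive without the third GSC library. Among genes named beside the ligands, none of which had passed there, the sign also turned for IFNGR1 in Diff cells against U87 with median-ratio scaling (0.00128), and when single libraries were left out for JAK2 in GSCs against U87 (-0.192 to 0.00448), QPCTL and IFNGR1 in Diff cells against U87 (-0.0281 to 0.0989 and -0.134 to 0.0197) and CMTM4 in Diff cells against GSCs (-0.0186 to 0.0147). PVR in Diff cells against GSCs (0.20, adjusted p = 0.0532) passed with a mean TPM over 5, with median-ratio scaling, with TPM rescaled without mitochondrial genes and RN7SL1, and without the second GSC library (adjusted p from 0.0204 to 0.17 over all alternatives), and NECTIN2 in the same comparison passed without the second GSC library (0.0331 to 0.372).

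NECTIN2 went beyond the fold limit in GSCs against U87, so that 1 ligand in place of 0 was called, with quantile normalization and without the second U87 or the second GSC library (0 to 1 when each library was left out). The fold limit and not the test set this count, since 4 ligands passed. With a pseudocount of 5 the lists around the ligands had 12, 9 and 3 called genes in GSCs against U87, Diff cells against U87 and Diff cells against GSCs, in place of 19, 18 and 11, and all genes had 1707, 1146 and 673 in place of 3908, 2812 and 1836. With a mean TPM over 5, where fewer genes were tested, all genes had 2254, 1583 and 1038. A larger pseudocount shrinks fold changes by construction, and the cause of the other shifts was not tested.

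The replicate numbers did not pair the libraries: the deviations of same-numbered libraries from their group means correlated between -0.0416 and 0.0489 across genes. With the number as a replicate block, 4, 5 and 4 ligands passed in GSCs against U87, Diff cells against U87 and Diff cells against GSCs, and 65, 58 and 42 genes of the lists around them, in place of 69, 60 and 48. No scaling moved the median of all genes by as much as 0.1 on the log2 scale. edgeR and DESeq2 were not run because the table holds no counts. TPM keeps no depth, so counting error was not computed, and 3 libraries per line set the precision.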
